A study of Mus musculus with 12 samples.

Results

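The genes described here are those whose RNA differed between high-fat diet (HFD) and regular chow in the liver of mice that lack PXR, with the weight on the genes that belong to no commonly grouped family of liver genes. They are the rows of the diet table, 336 genes of the 369 rows in the series' 2 tables. Of the 336, 131 belong to 21 families set apart by symbol (collagens, lipogenic enzymes, P450s, transporters, clock genes and the like), and the 205 others are the subject of what follows. All animals were C57BL/6N mice, labelled PXR deficient, in every group including the chow controls. From 6 weeks of age they ate regular chow or HFD for 18 weeks, and neither diet group compared here has a treatment in its labels. There were 3 separate mice per diet, 1 liver library each: mice 670, 695 and 707 on chow, and mice 659, 669 and 696 on HFD. The series also holds 3 HFD-fed mice given vehicle with 30% DMSO and 3 given the PXR ligand PCN at 50 mg/kg. The labels used here name no sex, and no PXR-sufficient group was analysed here, so nothing below separates an effect of diet in general from one in mice without PXR. Nr1i2, the gene that encodes PXR, is not among the rows, and the genotype was not checked.

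PXR is a nuclear receptor of hepatocytes that binds drugs, bile acids and steroids and switches on genes of their breakdown and export, and it also acts on lipid and glucose metabolism. In a mouse liver, long feeding on fat is known to fill hepatocytes with lipid droplets, to change the enzymes that make and burn fat, and with time to bring in inflammatory and matrix-forming cells. Beyond those well-known families, hepatocytes send and receive growth factor signals, keep a network of liver transcription factors, and fold and secrete most plasma proteins. The genes below are ordered by those roles: signals and receptors, transcription and chromatin, protein folding, metabolism, secreted proteins, and structural genes.

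Levels are normalized counts, the deposited raw counts divided by the size factor of each mouse, which was recovered from the authors' mean column. Size factors lay between 0.829 and 1.14. The listed genes together had 547431 to 920106 raw counts in a mouse, and the total depth of the libraries is unknown because the table holds selected genes only. Values per mouse are given in the order 670, 695 and 707 for chow and 659, 669 and 696 for HFD. Means are followed by ± SD over 3 mice. "Rose" and "fell" mean that the adjusted p of a gene was under 0.05 in the authors' deposited table. Every row did, since the table was selected on this very contrast: its largest adjusted p is 0.0474 and its smallest absolute log2 fold change is 0.6. None of the 20 hepatocyte markers looked for is a row, so the tissue label was not checked against them.

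The diet calls made up a small share of the genes tested and leaned towards rises. The 336 rows are 1.34% of about 24990 genes that the authors tested, with 0.86% higher and 0.484% lower. These shares describe the selection, and nothing is read from them. Among the 205 genes outside the families, 126 rose and 79 fell, so 61.5% were higher, beside 64.0% of all 336 rows. The median rise was 2.38-fold and the median fall 1.88-fold, against 2.31-fold and 1.99-fold over all rows. Rises of more than 3-fold numbered 35, and falls of that size 8. Outside the families the median level over the 6 mice was 182 normalized counts for the rises, against 319 for the falls. A chow mean under 10 was seen in 15 of these rises but 0 of these falls. A fall from so few counts could hardly pass the authors' limits, so nothing is read from this difference in level. In all 205 genes the 3 HFD mice lay on 1 side of the 3 chow mice. That holds for 99.4% of all rows and follows from the selection.

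**Figure D1:**
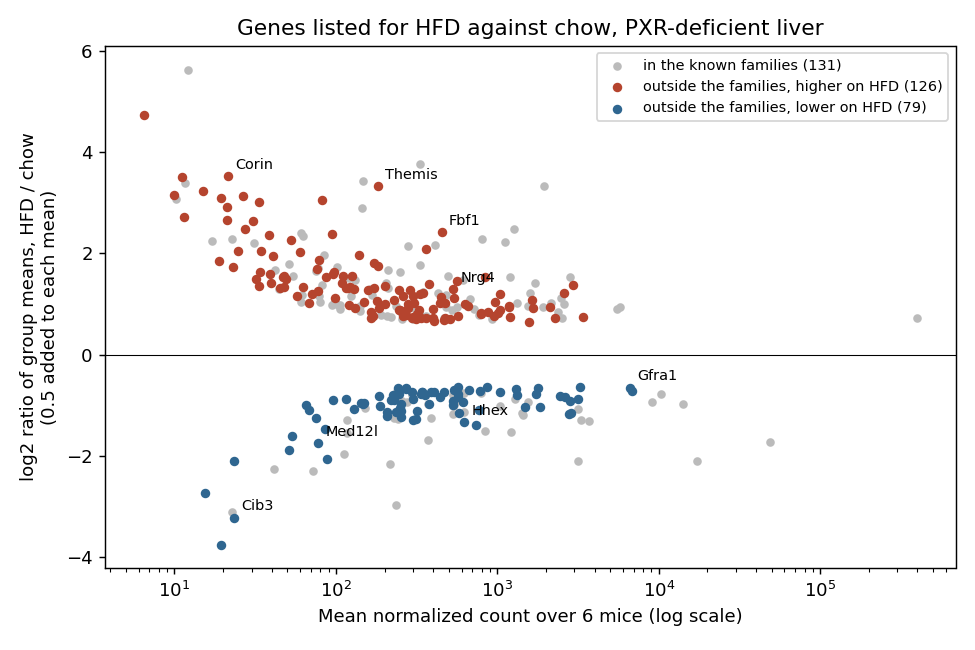
Each point is 1 of the 336 listed genes, with its mean normalized count over the 6 mice on a log axis and the log2 ratio of HFD to chow group means, 0.5 added to each mean. Grey points are the 131 genes in known families, red and blue the 126 genes higher and 79 lower on HFD outside them; the largest ratios lie at low counts, and no point lies near 0 because the table holds selected genes only.

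A stricter reading kept 2 of these genes. edgeR's quasi-likelihood test, fitted on the listed rows with the size factors recovered here and a Benjamini-Hochberg adjustment over every gene tested, called 8 of 331 fitted rows higher (2.42%) and 1 lower (0.302%) at an adjusted p under 0.05. At an unadjusted p under 0.05 it had 212 higher and 119 lower. These are all 331 fitted rows, and the rows were selected on this contrast, so nothing is read from that count. Outside the families the calls at an adjusted p under 0.05 were Themis and Fbf1. With all mice, edgeR called no other fitted gene outside the families, also where no edgeR value is given below. A filter on low counts left A4gnt, Cib3 and Gm32540, described below, without a fit, so edgeR did not test them. Leaving out 1 mouse took the 8 to between 1 (chow mouse 707) and 7 (HFD mouse 669), with 2 when chow 670 or HFD 659 was dropped and 3 when chow 695 or HFD 696 was. The 1 lower call became 2 without chow mouse 670 and 0 without any of the other 5 mice.

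Themis, a gene of T cell receptor signalling in developing thymocytes, had the smallest adjusted p of the rises outside the families in the authors' deposited table, 1.53e-15. Its normalized counts were 58.6, 25 and 13.3 in chow mice and 372, 306 and 315 in HFD mice. The lowest HFD mouse lay far above the highest chow mouse. The group means were 32.3 ± 23.5 and 331 ± 36.1 (SD, n = 3 each), a 10.3-fold rise, which became 17.3-fold without chow mouse 670 and 7.92-fold without chow mouse 707. By edgeR the log2 fold change was 3.33 (SE 0.43, adjusted p = 0.0405); the adjusted p was 0.0147 without chow mouse 670 and lay between 0.0927 and 0.244 without any of the other 5 mice. Themis lies at chr10:28668360-28883818 on the plus strand of GRCm38. Of 33 lymphocyte markers looked for, it is the only row, so no other T cell gene was available beside it and the part of lymphocyte number in this rise was not tested. In a whole piece of liver, more cells of a type and more RNA per cell cannot be told apart, here or in any gene below. Other rows were put with genes of immune roles after their values were seen. Of these, Tlr5, the flagellin receptor, rose 2.29-fold, and Stap1, a docking protein of lymphocyte and growth factor receptor signalling, 3.69-fold. Lect2, a hepatokine, rose 1.74-fold, while Gimap9, a GTPase gene of lymphocytes, fell 1.95-fold. Which cells these RNAs came from was not tested.

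Fbf1, whose protein sits on the transition fibres that anchor the primary cilium to its basal body, rose in every HFD mouse. Its normalized counts were 106, 194 and 126 in chow mice and 720.2, 545 and 1019 in HFD mice. Even the lowest HFD mouse had more than the highest chow mouse by a wide margin. Group means were 142 ± 46 and 761 ± 239.9 (SD, n = 3 each), a 5.36-fold rise, with an edgeR log2 fold change of 2.42 (SE 0.30, adjusted p = 0.0405). That adjusted p was 0.0340 without HFD mouse 669 and between 0.124 and 0.192 without any of the other 5 mice. Fbf1 lies at chr11:116142285-116168166 on the minus strand. Among the other rows are 2 more genes of cilia and flagella, chosen after their values were seen. Tmem237, a transition zone protein, had 36.2, 21.1 and 14.5 in chow mice and 62.4, 76.4 and 72.1 in HFD mice, a 2.94-fold rise. Cfap54, needed for motile cilia, had 14.7, 26.9 and 35 in chow mice and 69.6, 77.5 and 72.1 in HFD mice, a 2.86-fold rise. In both genes the HFD mice lay close together.

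The promoters of Themis and Fbf1 are shown because these are the genes that both tests called. Each line gives the 250 bases before the RefSeq transcription start, 5′ to 3′ on the strand of the gene, from RefSeq on GRCm38.p6, at chr10:28668110-28668359 for Themis and chr11:116168179-116168428 for Fbf1. Capitals mark matches to 6 searched motifs, on either strand: the E-box CACGTG, the cyclic AMP response element TGACGTCA, the antioxidant response core TGACNNNGC, the STAT palindrome TTCNNNGAA, the CCAAT box and the TATA box TATAAA.
Themis: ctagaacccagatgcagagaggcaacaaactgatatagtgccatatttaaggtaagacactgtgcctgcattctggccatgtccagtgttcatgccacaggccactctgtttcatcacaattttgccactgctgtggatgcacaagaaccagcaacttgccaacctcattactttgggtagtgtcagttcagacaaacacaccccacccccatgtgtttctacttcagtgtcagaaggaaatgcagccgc
Fbf1: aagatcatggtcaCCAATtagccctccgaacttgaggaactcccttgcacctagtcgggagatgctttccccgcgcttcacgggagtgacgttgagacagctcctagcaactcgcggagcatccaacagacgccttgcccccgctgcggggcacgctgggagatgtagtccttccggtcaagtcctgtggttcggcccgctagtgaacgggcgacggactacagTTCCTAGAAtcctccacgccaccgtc
The Themis window holds none of these letters, and the Fbf1 window holds a CCAAT box and, near its 3′ end, a STAT palindrome. Matches are letters in a window and say nothing of whether a factor binds.

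The share of windows with each motif was counted among the diet genes and among all promoters. Of the 205 genes, 143 had a promoter in the table by symbol, 87 that rose and 56 that fell, against 27025 promoters in all with chromosome 18 left out. The E-box was found in 9.2% of the rises and 12.5% of the falls, against 6.04% of all promoters. For the cyclic AMP response element the shares were 2.3% of the rises and 3.57% of the falls, against 1.6% of all promoters. The antioxidant response core was in 13.8% of the rises and 17.9% of the falls, against 10.1% of all promoters. These rest on 8 and 7, 2 and 2, and 12 and 10 genes. The STAT palindrome was in 4.6% of the rises and 5.36% of the falls, against 7.14% of all promoters, or 4 and 3 genes. A CCAAT box stood in 37.9% of the rises and 41.1% of the falls, against 34.5% of all promoters, or 33 and 23 genes. The TATA box was in 6.9% of the rises and 1.79% of the falls, against 13% of all promoters, which is 6 and 1 genes. No test was made of these shares, and none is called particular to the diet genes.

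The 205 genes were grouped by role after their symbols and values had been seen, so the counts by role describe the table and carry no test. Of all 205 genes, 126 rose and 79 fell, so 61.5% were higher. Of 26 genes of growth factor, hormone and guidance signalling, 20 rose and 6 fell. Transcription and chromatin genes went the other way, with 6 of 24 higher and 18 lower, and so did genes of protein folding and ubiquitin, with 2 of 10 higher and 8 lower. Their median log2 ratios were 0.97, -0.76 and -0.76, beside 0.82 over all 205 genes. Lipid handling genes were split 6 to 6, and genes of the cytoskeleton and small GTPases 10 to 8.

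**Figure D2:**
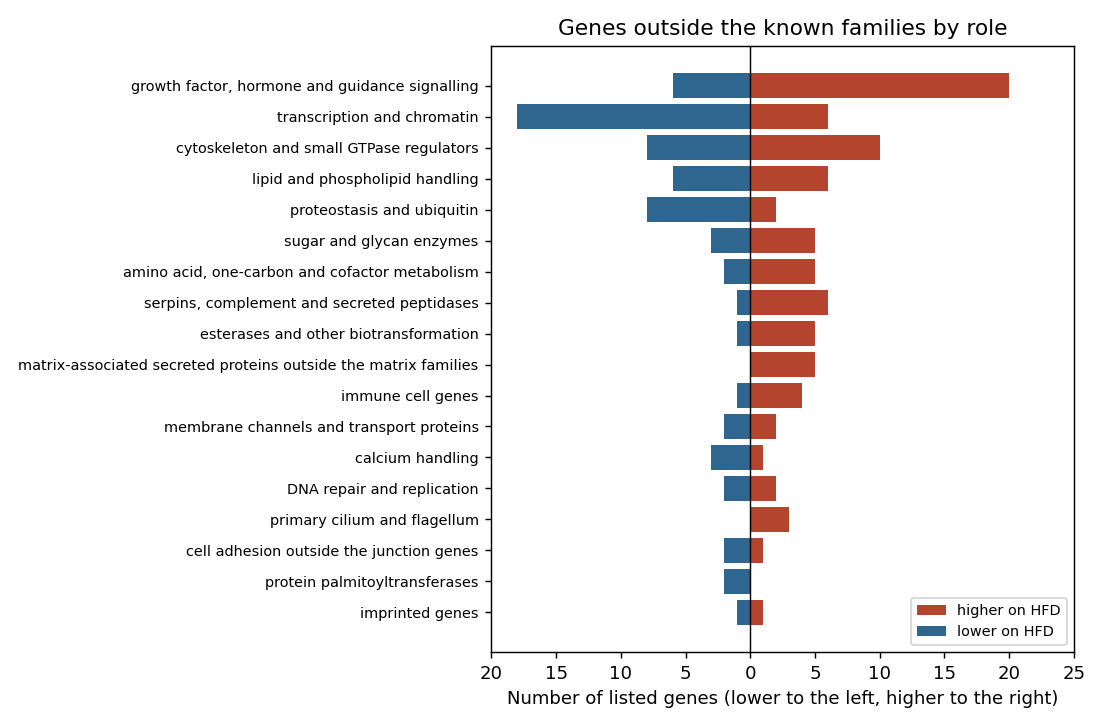
Bars give the number of listed genes outside the known families in each of 18 role groups, with genes higher on HFD to the right and genes lower on HFD to the left. Signalling has 20 higher and 6 lower, transcription and chromatin 6 higher and 18 lower, beside 61.5% higher over all 205 genes. A gene with 2 roles is counted in each.

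Among the signalling genes, a ligand and its receptor both rose. Nrg4 encodes neuregulin 4, a growth factor of the EGF family that is best known as a secreted signal from brown fat to liver, and Erbb4 encodes its receptor tyrosine kinase. Nrg4 had 313, 339.8 and 278 in chow mice and 682, 699.7 and 892 in HFD mice. All 3 HFD mice exceeded all chow mice, and the means of 310.0 ± 31.2 and 758 ± 116 (SD, n = 3 each) gave a 2.44-fold rise, with an adjusted p of 2.11e-09 in the authors' deposited table. edgeR gave an adjusted p of 0.0865. Erbb4 had 29.3, 156 and 62.8 in chow mice and 251, 288 and 302 in HFD mice. The chow mice were spread over a wide range, with mouse 695 closest to the HFD mice. The ratio of 3.38 became 6.09 without mouse 695, and the adjusted p was 0.00730 in the authors' deposited table. For Erbb4 the edgeR adjusted p was 0.446. Per kilobase of exon, the HFD means were 125 normalized counts for Nrg4 and 22.7 for Erbb4, so the ligand's RNA was the more abundant of the pair. Nrg4 lies at chr9:55220222-55326844 on the minus strand and Erbb4 at chr1:68032186-69108059 on the minus strand.

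Several genes of Ras and MAP kinase signalling, picked here after their values were seen, were higher. Dusp6, the phosphatase that dephosphorylates ERK, had 541, 659 and 521 in chow mice and 984, 1082 and 976 in HFD mice, a 1.77-fold rise. Spry4, a Sprouty inhibitor of the Ras pathway, had 54.7, 143 and 139 in chow mice and 218, 349 and 301 in HFD mice, a 2.58-fold rise. In Spry4 the chow spread came from mouse 670 alone, and the other two chow mice were alike. Rasgrp2, an exchange factor for Rap1, rose 1.84-fold, and Rassf3, a Ras-association domain protein, had 858, 924 and 892 in chow mice and 1571, 1529.6 and 1394 in HFD mice, a rise of 1.68-fold with little spread in either group. The family genes Gdf15 and Inhbe, ligands of the TGF-beta group, rose beside Inhbc, Inhba and Bmp2, which fell; they stand apart from these counts.

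A ligand and a receptor of the TNF superfamily rose. Eda, the ligand ectodysplasin A, had 28.3, 53.8 and 60.3 in chow mice and 158, 142 and 145 in HFD mice, a 3.13-fold rise. Tnfrsf19, a TNF receptor family member, had 99.7, 69.1 and 126 in chow mice and 249, 219.6 and 266 in HFD mice, a 2.5-fold rise. In both genes every HFD mouse exceeded every chow mouse. Other receptors that rose were Paqr7, a membrane progestin receptor (1.93-fold), Robo2, the axon guidance receptor for Slit ligands (1.99-fold), and Adgrv1, a very large adhesion G protein-coupled receptor (4.24-fold, 7.27-fold without chow mouse 695). Rcan2, an inhibitor of calcineurin, rose 2.1-fold. Corin, the peptidase that activates atrial natriuretic peptide, had 1.95, 0.960 and 6.03 in chow mice and 60.5, 31.2 and 27.3 in HFD mice. It was close to 0 in every chow mouse, and the ratio of 13.3 became 27.2 without chow mouse 707.

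A smaller set of receptors and pathway genes fell. Gfra1, the co-receptor of the neurotrophic factor GDNF, was among the most abundant rows that fell, with 10105, 6919 and 7319.8 in chow mice and 4806, 5292 and 5345 in HFD mice. It dropped 1.58-fold and chow mouse 670 stood above the others. S1pr1, the sphingosine 1-phosphate receptor that endothelial cells and lymphocytes carry, had 1332, 1316 and 1229.8 in chow mice and 629, 934 and 755 in HFD mice, a 1.67-fold fall. Apom, which encodes apolipoprotein M, the carrier of sphingosine 1-phosphate on HDL, had 2426, 1754 and 1778 in chow mice and 823, 1167 and 904 in HFD mice, a 2.06-fold fall. Spns2, a transporter that exports sphingosine 1-phosphate, rose 1.68-fold, so the 3 listed genes of that lipid signal did not all move one way. Of the rest, Tab2, an adaptor of TAK1 kinase in NF-kappaB signalling, fell 1.74-fold, Frat1, a GSK-3-binding protein of the Wnt pathway, 2.12-fold and Rtn4rl1, a Nogo receptor family member, 2.1-fold. Sstr2, a somatostatin receptor, had 70.3, 19.2 and 25.3 in chow mice and 5.42, 12.9 and 7.03 in HFD mice. Its fall of 4.53-fold was 2.63-fold without chow mouse 670.

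**Figure D3:**
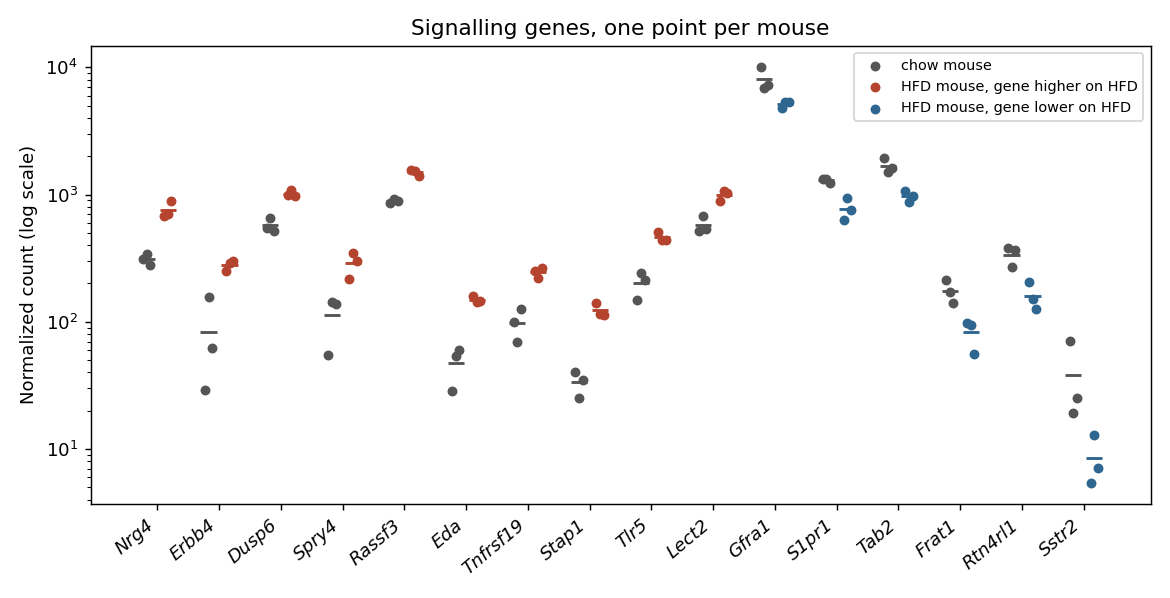
Normalized counts on a log axis for 16 signalling genes outside the families, 1 point per mouse, with the group mean as a short line; chow mice are grey, and HFD mice are red where the gene was higher and blue where it was lower. In Nrg4 the HFD mice sit between 682 and 892 and the chow mice between 278 and 339.8, while in Erbb4 chow mouse 695 at 156 lies apart from the other chow mice.

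The group of transcription and chromatin genes, put together after the rows were seen, held 6 rises and 18 falls, while a separate list of 124 transcription factors and nuclear receptors, which also holds family genes, had 3 rises and 4 falls. Neither count carries a test, and 61.5% of the 205 genes and 64.0% of all rows were higher. Hhex, a homeobox factor needed to form the liver bud, had 976, 754 and 945 in chow mice and 395, 364 and 294 in HFD mice. The HFD mice all lay under the chow mice and the spread within either diet was small. The means of 892 ± 120.5 and 351 ± 51.8 (SD, n = 3 each) are a 2.54-fold fall, with an adjusted p of 1.05e-09 in the authors' deposited table, the smallest of all falls outside the families; edgeR gave 0.0865. Hhex lies at chr19:37434810-37440731 on the plus strand.

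Foxq1, a forkhead factor, had 361, 372 and 602 in chow mice and 183, 160.4 and 207 in HFD mice, a 2.43-fold fall in which chow mouse 707 was the highest. Atf5, a bZIP factor of the stress responses of mitochondria and amino acid shortage, had 4215, 2909.7 and 4725 in chow mice and 1766, 1659 and 1913 in HFD mice, a 2.22-fold fall. Zfpm1, the GATA cofactor FOG1, had 787, 728 and 867 in chow mice and 419, 334 and 320.1 in HFD mice, a 2.22-fold fall. All 3 were lower in every HFD mouse than in any chow mouse.

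Zbtb18, a zinc finger repressor, had the smallest spread within groups of all named genes outside the families, with 648, 660.5 and 682 in chow mice and 396, 408 and 421 in HFD mice. Means were 663 ± 17.2 and 408 ± 12.7 (SD, n = 3 each), a 1.62-fold fall that stayed between 1.6 and 1.65 when any 1 mouse was left out. The related Zbtb42 fell 2.16-fold. Gtf2ird1, a factor related to TFII-I, fell 1.96-fold, Atoh8, a basic helix-loop-helix factor, 2.18-fold, and Pnrc1, a nuclear receptor coactivator, 1.66-fold.

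Genes of chromatin and the transcription machinery also fell, most of those named by less than 2-fold. Chd4, the ATPase of the NuRD complex, had 4469, 3662 and 3756 in chow mice and 2756, 2427 and 2423 in HFD mice, a 1.56-fold fall. Nsd2, a histone H3 lysine 36 methyltransferase, had 681, 779.5 and 632 in chow mice and 462, 432 and 449 in HFD mice, a 1.56-fold fall. Both lie just inside the authors' limit on the fold, with a deposited log2 fold change of -0.6. Med12l, a paralogue of the Mediator kinase module subunit MED12, made a larger step, with 118, 117 and 126 in chow mice and 43.4, 36.6 and 26.4 in HFD mice, a 3.39-fold fall that had an edgeR adjusted p of 0.112. Leo1, a subunit of the PAF1 elongation complex, fell 1.67-fold and Psip1, a reader of methylated histone H3, 1.88-fold.

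The 6 genes of this role that rose were led by Btg2, an antiproliferative cofactor of RNA decay, with 185, 149.8 and 149.7 in chow mice and 267, 358 and 463 in HFD mice, a 2.25-fold rise. Tsc22d1, a leucine zipper factor, rose 2.17-fold, Zfp276, a zinc finger gene, 2.03-fold and Tle3, a Groucho family corepressor, 1.58-fold. Hmgn2, a nucleosome-binding protein, and Chd1l, a remodeller recruited to DNA damage, rose 1.79-fold and 1.63-fold. Wee1, the kinase that holds back entry into mitosis, had 56.7, 81.6 and 65.2 in chow mice and 174, 208 and 126 in HFD mice, a 2.5-fold rise. Wrnip1, an ATPase at stalled replication forks, had 1172, 975 and 996 in chow mice and 554, 454 and 459.9 in HFD mice, a 2.14-fold fall, and Dna2, a nuclease of replication, fell 1.95-fold, while Mgmt, which repairs alkylated guanine, rose 2.02-fold.

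**Figure D4:**
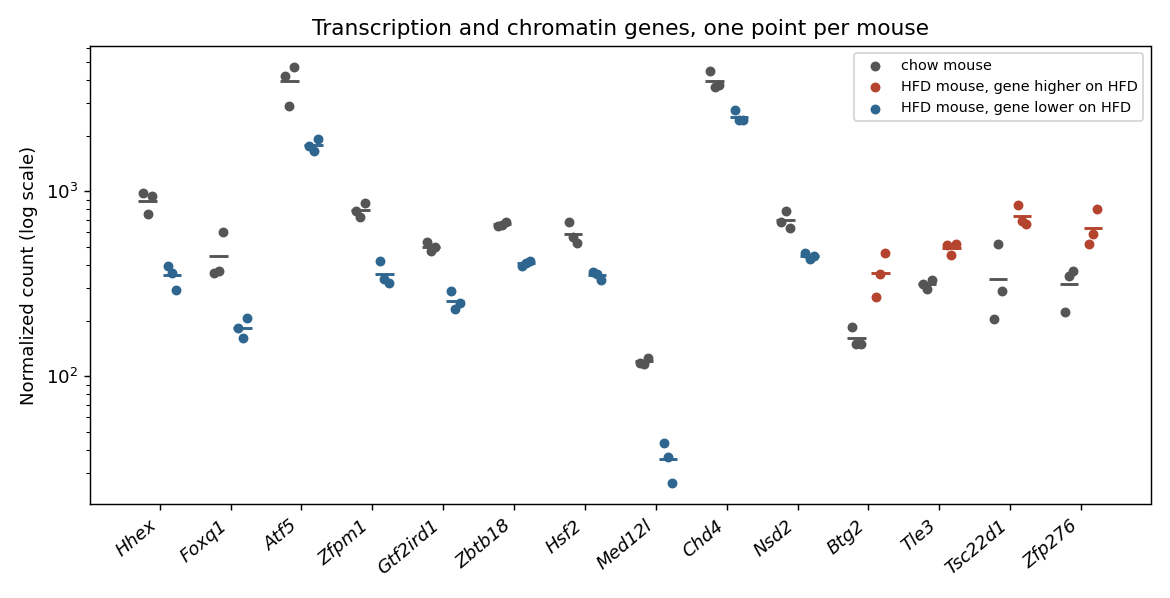
Normalized counts on a log axis for 14 transcription and chromatin genes, 1 point per mouse with the group mean as a short line; chow mice are grey, and HFD mice blue where the gene was lower and red where it was higher. The 10 genes to the left fell and the 4 to the right rose; Zbtb18 shows the tightest groups, and Med12l drops from between 117 and 126 to between 26.4 and 43.4.

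Protein folding and turnover genes were mostly lower. Hsp90aa1, the stress-inducible HSP90 chaperone, had 4057, 3670.0 and 2388 in chow mice and 1957, 1606 and 2088 in HFD mice, a 1.79-fold fall with chow mouse 707 nearest to the HFD mice. Hsf2, a heat shock transcription factor, had 679, 564 and 524 in chow mice and 366, 357 and 331 in HFD mice, a 1.68-fold fall. Clpx, the unfoldase of the mitochondrial protease CLPXP, had 4323, 4207 and 3064 in chow mice and 2087, 1511 and 1552 in HFD mice, a 2.25-fold fall. All 3 genes were lower in each HFD mouse than in any chow mouse, and edgeR called none of them. Tmed5, a cargo receptor between endoplasmic reticulum and Golgi, had 2609.7, 2404 and 2437 in chow mice and 1387, 1009.7 and 1229 in HFD mice, a 2.05-fold fall. Cacybp, Dtx4 and Fbxo30, which take part in ubiquitin ligation, fell 1.67-fold, 1.75-fold and 1.71-fold. Going up were Ubd, the ubiquitin-like modifier FAT10, and Trim7, a ubiquitin ligase. Ubd had 6.84, 9.6 and 7.24 in chow mice and 89.5, 22.6 and 28.1 in HFD mice, and its ratio of 5.92 became 3.21 without HFD mouse 659. The protein palmitoyltransferases Zdhhc14 and Zdhhc20 both fell, 2.0-fold and 1.59-fold.

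Phospholipid and sterol handling outside the lipogenic families moved in both directions. Gpcpd1, which splits glycerophosphocholine into glycerol phosphate and choline, had 1595, 1926 and 1393 in chow mice and 3354, 4969 and 4371 in HFD mice. The means of 1638 ± 269 and 4231 ± 816 (SD, n = 3 each) gave a 2.58-fold rise, with an adjusted p of 3.6e-09 in the authors' deposited table and 0.122 by edgeR. Chka, choline kinase alpha, which commits choline to phosphatidylcholine synthesis, had 1156, 600.0 and 669.8 in chow mice and 511, 380.0 and 379 in HFD mice. It fell 1.91-fold, and 1.5-fold without chow mouse 670, the highest of its group. Enpp2, the secreted enzyme autotaxin that makes lysophosphatidic acid, had 905, 1433 and 1144 in chow mice and 1760.3, 2459 and 2331 in HFD mice, a 1.88-fold rise.

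Lipid transfer proteins of the oxysterol-binding family rose. Osbpl3 had 61.6, 179 and 169 in chow mice and 607, 479 and 665 in HFD mice, a 4.28-fold rise, and its chow mouse 670 was the lowest. Osbpl5 had 29.3, 96 and 73.6 in chow mice and 142, 159 and 197 in HFD mice, a 2.5-fold rise. Lyplal1, a lysophospholipase-like esterase gene, had 197, 189 and 212 in chow mice and 342, 359.5 and 331 in HFD mice, a 1.72-fold rise with little spread within either diet. Falls were seen in Gk, glycerol kinase, with 4431, 3827 and 4122 in chow mice and 2601, 2137 and 1959 in HFD mice, a 1.85-fold step. Hsdl2, a hydroxysteroid dehydrogenase-like protein, had 3747, 3808 and 3575 in chow mice and 2445, 1758 and 1679.5 in HFD mice, a 1.89-fold fall. Hacd1, a dehydratase of fatty acid elongation, fell 1.88-fold, and Pgap1, which remodels glycosylphosphatidylinositol anchors, 1.62-fold.

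Cbs and Gsr, of sulphur amino acid and glutathione metabolism, fell. Cbs, cystathionine beta-synthase, which takes homocysteine into cysteine synthesis, was the most abundant fall outside the families, with 7491, 6984 and 10936 in chow mice and 4252, 5335 and 5793 in HFD mice. Its fall was 1.65-fold, and 1.41-fold without chow mouse 707. Gsr, glutathione reductase, had 2509, 1955 and 2113 in chow mice and 1379.9, 1319 and 1483 in HFD mice, a 1.57-fold fall. Cbs lies near the authors' limit on the adjusted p, with 0.0358 in the authors' deposited table. edgeR called neither Cbs (unadjusted p = 0.0149) nor Gsr (adjusted p = 0.578).

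Other amino acid and cofactor genes rose. Agxt2, a mitochondrial aminotransferase that clears dimethylarginines, had 1066, 1568 and 1698 in chow mice and 2446, 2841 and 3054 in HFD mice, a 1.93-fold rise. Dglucy, D-glutamate cyclase, had 626, 570.2 and 669.8 in chow mice and 1111, 1163 and 1092 in HFD mice, a 1.8-fold rise. Gamt, the methyltransferase that completes creatine, rose 1.71-fold, Hnmt, which methylates histamine, 2.04-fold and Nmrk1, a nicotinamide riboside kinase, 1.89-fold. Biotransformation genes outside the P450 and glutathione transferase families rose too. The carboxylesterase gene Ces2e had 2206, 3444 and 2016 in chow mice and 4208, 4699.7 and 3882 in HFD mice, a rise of 1.67-fold. Its paralogue Ces2g had 334, 430.1 and 316 in chow mice and 528, 589 and 626 in HFD mice, a rise of 1.61-fold. Sult1b1, a sulphotransferase of thyroid hormones and phenols, rose 2.42-fold and Aldh1b1, a mitochondrial aldehyde dehydrogenase, 1.95-fold. Ces2e and Ces2g are paralogues 27045 bases apart on chromosome 8, and the sources used here do not say how counting treated reads that paralogues share.

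The promoters of Cbs and Gk are shown as the 2 most abundant falls whose window holds an E-box. They are the 250 bases before the RefSeq start on GRCm38.p6, at chr17:31637206-31637455 and chrX:85776820-85777069, both read on the minus strand, with capitals for the 6 motifs above.
Cbs: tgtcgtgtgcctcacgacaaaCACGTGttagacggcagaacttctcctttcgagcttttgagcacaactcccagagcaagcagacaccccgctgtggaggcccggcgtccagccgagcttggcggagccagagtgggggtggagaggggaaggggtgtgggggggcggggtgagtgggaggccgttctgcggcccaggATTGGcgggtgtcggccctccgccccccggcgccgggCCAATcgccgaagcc
Gk: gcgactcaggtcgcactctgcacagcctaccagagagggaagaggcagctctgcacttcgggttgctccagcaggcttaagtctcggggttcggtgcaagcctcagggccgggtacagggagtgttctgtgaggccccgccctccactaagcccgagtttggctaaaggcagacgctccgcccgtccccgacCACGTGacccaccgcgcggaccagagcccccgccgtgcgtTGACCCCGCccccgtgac
The Cbs window also holds CCAAT boxes, and the Gk window an antioxidant response core.

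Serpins and secreted peptidases were mostly higher. Serpina7, thyroxine-binding globulin, had 704, 575 and 611 in chow mice and 1955, 1065 and 1348 in HFD mice, a 2.31-fold rise. Serpinh1, the collagen chaperone HSP47, had 103, 163 and 138 in chow mice and 237, 284 and 288 in HFD mice, a 2.0-fold rise. Serpine2, protease nexin 1, went down instead, with 284, 469 and 315 in chow mice and 119, 219 and 113 in HFD mice, a 2.37-fold fall. C4a, grouped with them, is a complement C4 copy whose gene is annotated as noncoding. It had 277, 265 and 356 in chow mice and 363, 701 and 1397 in HFD mice. The lowest HFD mouse lay just above the highest chow mouse, and the ratio of 2.74 was 1.78 without HFD mouse 696; C4a has a near-identical neighbour, so its counts are uncertain.

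Secreted proteins that associate with matrix were among the rises: Ccdc80 (2.22-fold), Svep1 (2.96-fold), Angptl2 (1.66-fold), Olfml3 (2.3-fold) and Ccdc3 (3.15-fold). Ccdc80 was the most abundant, with 345, 222 and 267 in chow mice and 717, 558 and 573 in HFD mice. Some markers of stellate cells and fibroblasts moved with them: 5 of the 23 looked for are rows, and all 5 rose, while 64.0% of all rows are higher and rows are 1.34% of all genes tested. The other markers on that list are not rows and their levels are unknown. The summed level of the 5 ran from 1164 to 1392 in chow mice and from 2518 to 4237 in HFD mice. Of 25 macrophage markers 2 are rows, Itgax and Mmp12, and both rose, their sum going from at most 25.3 to at least 71.2. The adipocyte markers Plin4 and Pparg, 2 of 11, rose as well, from a sum of 857 to 1322 in chow mice to one of 1459 to 2639 in HFD mice. None of the listed markers of endothelium, neutrophils, cholangiocytes, mesothelium, erythroid or acinar cells is a row. These sums hold only rows selected on this contrast, so a difference between the diets follows from the selection, and the part that other cells have in these rises was not tested.

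Genes of sugar and glycan enzymes included a divergent gene pair that rose together. Treh, trehalase, had 90.9, 64.3 and 54.3 in chow mice and 164, 147 and 217 in HFD mice, a 2.52-fold rise. BC049987, a gene of unknown function on the opposite strand, had 139.7, 62.4 and 26.6 in chow mice and 181, 259 and 365 in HFD mice. Its ratio of 3.52 was 6.03 without chow mouse 670, the mouse that was also the highest chow mouse for Treh. The 5′ end of BC049987 lies 994 bases from the start of Treh, with the genes at chr9:44670453-44672238 on the minus strand and chr9:44673233-44686305 on the plus strand. Their promoter windows, the 250 bases before each RefSeq start at chr9:44672261-44672510 and chr9:44672983-44673232 of GRCm38.p6, are shown because the genes share this short interval.
BC049987: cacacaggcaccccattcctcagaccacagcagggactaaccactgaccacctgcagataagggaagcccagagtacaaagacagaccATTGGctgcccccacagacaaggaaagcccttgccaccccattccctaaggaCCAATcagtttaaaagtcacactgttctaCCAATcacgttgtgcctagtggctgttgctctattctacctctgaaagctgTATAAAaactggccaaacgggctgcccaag
Treh: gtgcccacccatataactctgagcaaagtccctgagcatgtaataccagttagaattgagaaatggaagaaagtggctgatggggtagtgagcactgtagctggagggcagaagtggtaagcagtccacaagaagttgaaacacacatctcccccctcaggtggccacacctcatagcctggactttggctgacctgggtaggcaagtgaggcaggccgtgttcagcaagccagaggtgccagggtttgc
Read on their own strands, with capitals for the 6 motifs above, the BC049987 window holds 3 CCAAT boxes and a TATA box, and the Treh window none of the motifs.

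Of the other glycan genes, Extl1, of heparan sulphate synthesis, rose 2.94-fold and Epm2a, the glycogen phosphatase laforin, 2.07-fold. A4gnt, a glycosyltransferase of mucins, had no count in any chow mouse and 21.7, 11.8 and 5.28 normalized counts in the HFD mice. With the chow group as a whole put at 3 counts, an assumed upper limit where none was seen, the HFD mean was 12.5-fold higher. Without HFD mouse 659 it was 8.26-fold higher. Neither figure takes in the spread between mice, so neither is a firm lower limit. Gcnt4, a branching enzyme of O-glycans, had 258, 466 and 549 in chow mice and 108, 206 and 206 in HFD mice, a 2.45-fold fall. Chsy3, a chondroitin synthase, and C1galt1c1, the chaperone of the core 1 O-glycan enzyme, fell 1.99-fold and 1.58-fold.

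Muscle-type and actin-binding genes rose from low levels. Nebl, nebulette, which binds actin at Z-discs, had 18.6, 13.4 and 37.4 in chow mice and 98.5, 85 and 105 in HFD mice, a 4.15-fold rise. Myom3, a myomesin of the sarcomere's M-band, had 27.4, 8.64 and 13.3 in chow mice and 57.8, 65.7 and 71.2 in HFD mice, a 3.95-fold rise. Limch1, which activates non-muscle myosin, had 46.9, 48 and 48.3 in chow mice and 188, 102 and 144 in HFD mice, a 3.03-fold rise. Pls1, plastin 1 of microvilli, was near 0 in chow mice and highest in HFD mouse 659, with a ratio of 11.1 that was 6.26 without it. Eppk1, the keratin-binding epiplakin, and Ahnak, a giant scaffold protein, were more abundant and rose 1.94-fold and 1.57-fold. Among the falls, Tbc1d2b, a Rab GTPase regulator, had 1034, 1076 and 1034 in chow mice and 643, 665 and 708 in HFD mice, a 1.56-fold step with very little spread in either diet.

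Calcium and ion transport genes gave some of the largest falls and some of the least even. Atp2b2, a plasma membrane calcium pump, had 301, 50.9 and 78.4 in chow mice and 50.6, 24.8 and 26.4 in HFD mice. Chow mouse 670 was far above the rest, chow mouse 695 lay within 1 count of the highest HFD mouse, and the 4.23-fold fall was 1.91-fold without mouse 670. Cib3, a calcium- and integrin-binding protein, had 56.7, 4.8 and 66.4 in chow mice and 3.61, 4.31 and 4.4 in HFD mice. Chow mouse 695 was at the HFD level, so the fall of 10.4-fold rests on the other two chow mice. Caln1, a calmodulin-like protein, fell more evenly, with 136, 97.9 and 145 in chow mice and 62.4, 36.6 and 36.1 in HFD mice, a 2.8-fold fall. Aqp8, a water and hydrogen peroxide channel of hepatocytes, had 148, 300.5 and 169 in chow mice and 761, 501 and 369 in HFD mice, a 2.64-fold rise. Tmc7, a transmembrane channel-like protein, fell 1.87-fold, and Cadm4, an adhesion molecule, had 75.2, 99.8 and 67.6 in chow mice and 23.5, 28 and 13.2 in HFD mice, a 3.75-fold fall.

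A pair of imprinted genes, each read from 1 parental copy in normal development, moved oppositely. H19, a long noncoding RNA that is abundant in fetal liver, had 2.93, 0 and 12.1 in chow mice and 54.2, 61.4 and 29 in HFD mice. All HFD mice exceeded the chow mice, but the chow values were near the counting floor, and the ratio of 9.64 was 32.9 without chow mouse 707. Peg10, a retrotransposon-derived gene expressed from the paternal copy, had 78.2, 57.6 and 106 in chow mice and 37.1, 17.2 and 23.7 in HFD mice, a 3.1-fold fall.

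Several rows lie next to each other on the genome. Within 50 kb there were 29 pairs of rows, 23 of them moving in 1 direction, and 10 pairs had both genes outside the families, 9 in 1 direction. Since 64.0% of all rows and 61.5% of the 205 genes were higher, many pairs would share a direction anyway. Some pairs are paralogues or overlap, so their reads may be shared. No test was made of these counts and nothing is read from them. The closest pair outside the families was Ccdc57 and Gm11773 on chromosome 11. Gm11773 lies wholly inside Ccdc57 on the other strand, with 3216 shared bases. The sources used here do not say whether strand was used, so reads within those shared bases cannot be told apart. Ccdc57 had 13.7, 23 and 20.5 in chow mice and 52.4, 59.2 and 65.1 in HFD mice, a 3.09-fold rise. Gm8941 and C730036E19Rik on chromosome 1 lie 253 bases apart on 1 strand and rose 2.24-fold and 2.33-fold. The exception in direction was Fbxo30, which fell, and Epm2a, 45351 bases away, which rose.

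A cluster of 3 annotated Cyp2d pseudogenes on chromosome 15 rose together. Cyp2d36-ps had 362, 382 and 542 in chow mice and 938, 1376 and 1397 in HFD mice, a 2.89-fold rise with an edgeR adjusted p of 0.103. Cyp2d37-ps had 1173, 1567 and 1917 in chow mice and 2738, 4001 and 4160.1 in HFD mice, a 2.34-fold rise. Cyp2d38-ps had 775, 1081 and 1337 in chow mice and 1753, 2579 and 2373 in HFD mice, a 2.1-fold rise. In each, chow mouse 670 was the lowest of all 6 mice. Functional Cyp2d genes with similar sequence lie in the same cluster, so the assignment of these reads is uncertain. Cyp21a2-ps, a pseudogene of the steroid 21-hydroxylase, went from 3.65 ± 3.63 to 35 ± 24.7 (SD, n = 3 each), and its ratio of 9.58 ran from 5.82 without HFD mouse 696 to 22.4 without chow mouse 670.

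Predicted and uncharacterised genes made up 22 of the 205, with 18 higher and 4 lower, beside 61.5% higher over all 205. No test was made of this count. The largest rises among them were 5330417C22Rik and 9030619P08Rik, each 8.59-fold, and Gm11773. The first had 12.7, 14.4 and 24.1 in chow mice and 202, 84 and 155 in HFD mice, with an adjusted p of 3.04e-11 in the authors' deposited table and 0.0513 by edgeR, or 0.0268 without HFD mouse 669. 9030619P08Rik had 6.84, 6.72 and 7.24 in chow mice and 117, 22.6 and 39.6 in HFD mice, and without HFD mouse 659 its ratio was 4.48. The largest falls were Gm32540, Gm45792 and Gm16332. Gm32540 had 77.2, 7.68 and 25.3 in chow mice and 0, 3.23 and 3.52 in HFD mice, and its 16.3-fold fall was 7.34-fold without chow mouse 670. Gm45792 fell 7.46-fold, or 12.2-fold without HFD mouse 669, and Gm16332, at a higher level, 1.84-fold.

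Single mice set the size of many of the largest changes. The ratios kept their direction without any 1 mouse, which follows from the selection, since the diets overlap in none of these genes. Of the 204 genes with a count in both diets, 21 had a ratio that moved by more than 1.5 times when 1 mouse was left out, 17 rises and 4 falls. Among the 12 largest rises, predicted genes left out, HFD mouse 659 was the highest of its group in 9. Ptgfr, the prostaglandin F receptor, had 2.93, 9.6 and 3.62 in chow mice and 76.8, 12.9 and 21.1 in HFD mice, and its ratio of 6.86 was 3.16 without mouse 659. Ephb2, an ephrin receptor, had 2.93, 5.76 and 4.83 in chow mice and 68.7, 9.69 and 34.3 in HFD mice, with ratios of 8.33 and 4.88. Crybg2, a crystallin-domain gene, gave 5.31 and 3.38. Across all 126 rises, mouse 659 was the highest HFD mouse in 38.9%, mouse 669 in 36.5% and mouse 696 in 24.6%. Chow mouse 695 was the highest chow mouse, the nearest to HFD, in 49.2% of the rises, while in the falls chow mouse 670 was the highest in 49.4% and HFD mouse 659 the highest HFD mouse in 57%.

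**Figure D5:**
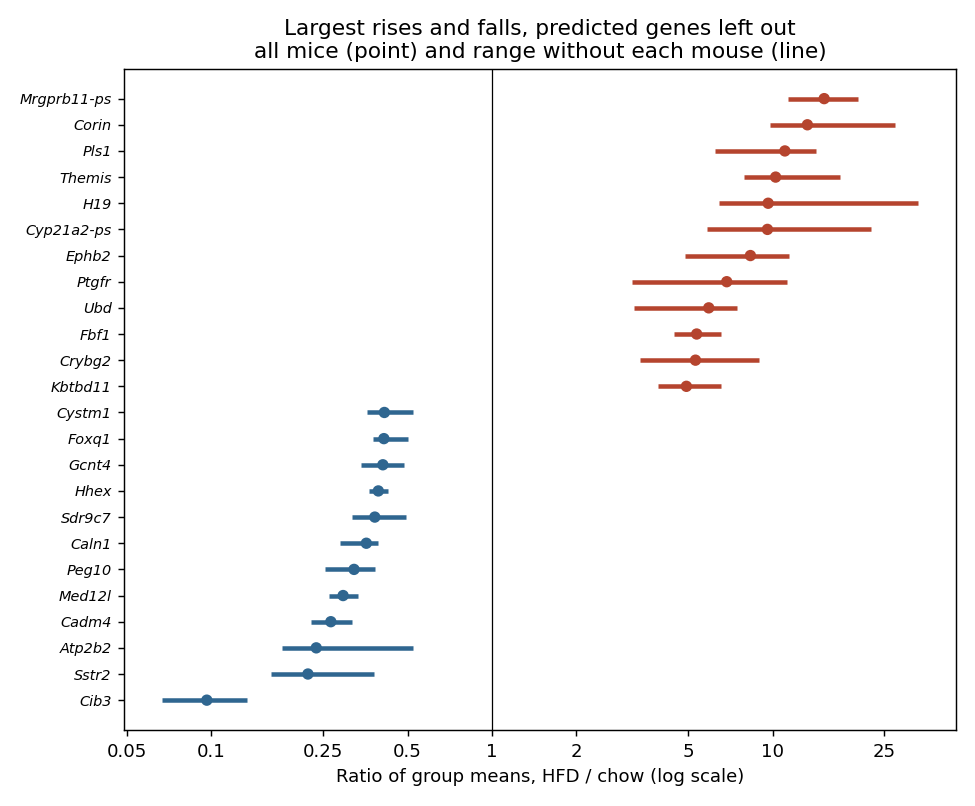
Ratio of HFD to chow group means on a log axis for the 12 largest rises (red) and 12 largest falls (blue) among genes outside the families that are not predicted genes and have a mean of at least 10 normalized counts; the point uses all mice, and the line spans the ratios obtained when each of the 6 mice is left out in turn. The lines of H19, Ptgfr, Cyp21a2-ps and Atp2b2 are long while those of Hhex, Med12l and Fbf1 are short.

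Broader lists of liver genes were counted with the family genes they hold, beside the 1.34% of all genes tested that are rows. The lists were written with earlier results of these data known and the rows were selected on this contrast, so nothing is read from these shares. Of 151 receptors, growth factors and cytokines, 4 rose and 6 fell, with a median log2 ratio of -0.77, beside 0.89 over all rows. Among 124 transcription factors and nuclear receptors 3 rose and 4 fell. Of 108 cytoskeleton and motor genes 4 rose and 0 fell, and of 66 genes of cell cycle, growth arrest and apoptosis again 4 rose and 0 fell, with median log2 ratios of 2.04 and 1.14. Of 85 other phase I and II enzymes, 6 rose and 1 fell, and of 85 genes of complement, coagulation, serpins and acute phase 4 rose and 1 fell. Amino acid, urea cycle and one-carbon genes had 1 rise and 3 falls of 80, and lipoprotein, phospholipid and sphingolipid genes 1 and 2 of 91. For ion channels and membrane pumps the count was 1 rise and 2 falls of 71, and for ubiquitin, autophagy and proteolysis 2 and 1 of 78. Chromatin, transcription machinery and RNA processing had 0 rises and 2 falls of 78, chaperones and ER stress 0 and 1 of 45, protein kinases and phosphatases 1 and 0 of 124, and glucose, glycogen and pyruvate metabolism 1 and 0 of 60. Members that are not rows did not meet the authors' limits or are not held here, and their levels are unknown.

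Rows just inside the fold limit had small changes, which follows from that limit. Among them were Ahnak, Nsd2 and Chd4, at 1.57-fold higher and 1.56-fold and 1.56-fold lower. Among those just inside the limit on the adjusted p were Fbxo30 and Kctd15, a gene of a BTB-domain protein, with 0.0436 and 0.0435 in the authors' deposited table. They fell 1.71-fold and 1.86-fold. Changes near that limit need not be small: Sstr2, with 0.0392 in the authors' deposited table, fell 4.53-fold. Genes just outside either limit are not held here.

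The PCN table, from other HFD-fed mice without PXR, shares 1 gene with the 205. Myom3, higher on HFD, had 35.5 ± 1.27 in 3 vehicle mice and 86.4 ± 12.4 in 3 PCN mice (SD, n = 3 each), with a log2 fold change of 0.8 and an adjusted p of 0.0124 in the authors' deposited table for PCN. That table was scaled separately, so levels are not compared across the 2 tables. The family genes Cyp2a4 and Dsg1c were also rows of both tables, higher on HFD and lower with PCN.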

How the data were processed

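Liver RNA-seq of 6 mice, 3 on chow and 3 on HFD, was analysed from the authors' table for diet. Per the labels' protocols, total RNA was extracted from liver pieces and treated with DNase before library preparation. Per the submitters' processing notes HISAT2, HTSeq and DESeq2 were used with GRCm38, also called mm10. Their versions and settings, and the strandedness of counting, were not given in the sources. Per the file headers, each mouse has a column of raw read counts, and the authors added columns of their own test (a mean, a log2 fold change with its error, a raw and an adjusted p-value). The authors listed only genes past limits on fold and adjusted p, so library totals are unknown, no interval based on depth is given, and the p-values measure the spread between these mice.

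The size factor of each mouse was found by solving for the deposited means, with a largest gap of 0.005 counts, and the number of genes tested, about 24990, from the relation between p and adjusted p. Each fold is the HFD mean of normalized counts over the chow mean, or the inverse; for all 204 genes outside the families with a count in both diets the deposited log2 fold change was smaller in size than the log2 of that ratio. edgeR 4.0.16 (quasi-likelihood test, filterByExpr, recovered size factors, Benjamini-Hochberg over all genes tested) fitted 331 of 336 rows. It was also run on simulated data whose spread came from the fit to these rows, and no result of that run is given. R was 4.3.3, limma 3.58.1, DESeq2 1.42.0 and Python 3.11.15. The spread that edgeR used is borrowed from selected rows only. With 3 mice against 3 an exact permutation test of 1 gene cannot go below 0.1, and none was run. All 336 IDs were in GENCODE M21, 322 with identical coordinates; positions are 1-based. Promoters are from RefSeq, matched by symbol, with the start farthest 5′ where a gene has several.

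The genes, families and lists were chosen with earlier results of these data known. Genes outside the families and not predicted, with a mean normalized count of at least 10, were named by rule: the 12 largest rises and falls, the 5 smallest adjusted p and 5 highest levels in each direction, edgeR's calls, the 3 smallest and largest spreads, the 3 just inside each limit, up to 4 members of each of 14 lists, 3 predicted genes in each direction and 6 neighbour pairs. A few genes chosen this way are not reported here. Some symbol patterns of the families, the 18 role groups, the 6 motifs and the genes named only by role were set after symbols or values were seen. List medians use 0.5 added to each group mean. Alternatives were an adjusted p under 0.01, a log2 fold change of 1 or more in size, a mean count of at least 50, TMM, DESeq2, no filter, other adjustments and leaving out each mouse.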

Additional observations from a re-analysis of the deposited data

How the results depend on the processing

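Stricter limits on the 215 rises and 121 falls in the authors' deposited table only remove rows: 130 and 76 had adjusted p-values below 0.01, 92 and 35 had log2 fold changes of 1 or more in size, and 126 and 79 lay outside the families. The edgeR counts of 8 higher and 1 lower became 10 and 112 with TMM over the listed genes, which centres the folds on rows selected for change, and 105 and 54 with DESeq2. They were 212 and 119 when adjusted over the listed genes alone or, an alternative chosen after seeing the data, at an unadjusted p under 0.05. Both settings passed every fitted row, and the rows were selected on this contrast, so nothing is read from these counts. Relaxing the adjusted p to 0.1 gave 16 and 5. Leaving out each mouse gave 1 to 7 higher and 0 to 2 lower; without a filter the counts stayed at 8 and 1. The median rise outside the families, 2.38-fold, was 1.5-fold with TMM and the median fall, 1.88-fold, was 2.92-fold; without each mouse they ran from 2.28 to 2.44 and from 1.83 to 1.95. Of the 83 named genes with an edgeR fit, 47 that edgeR did not call were called with DESeq2 and 33 with TMM. None changed sign, which follows from the selection, since the diets do not overlap in these genes and the rows were chosen by the size of their fold. No paired analysis was possible because mouse numbers are not shared between the diets. The tables give no library totals, so what depth limits at low counts was not measured.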
